A study of Mus musculus with 6 samples.

Results

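Most of the genes described here belong to the glutathione and thioredoxin systems. They encode glutathione peroxidases, glutathione transferases, peroxiredoxins, thioredoxins and their reductases, glutaredoxins, and glutathione synthetase and reductase. Thioredoxin-like genes, catalase and the extracellular superoxide dismutase are described with them. All were taken from the deposited table by gene symbol. A pattern on the start of the symbol took 57 of the 16060 rows. Of these, 8 share only their first letters with the family (Catip, 5 Catsper genes of the sperm calcium channel, and the antisense RNAs Gssos1 and Gssos2) and were set aside, which left 49 genes. Genes were tested where 3 or more of the 6 libraries reached 0.5 after back-transformation, and 44 of the 49 did. All 44 were above that minimum in all 6 libraries, so none of them passed through 1 group alone.

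Hippocampal RNA of 3 Control and 3 MA mice, all C57BL/6, was sequenced as 1 library each. The Control mice received saline by intraperitoneal injection, and the MA mice received methamphetamine at doses that were raised each week over successive weeks. According to the study's methods, all mice were adult males that went through behavioral tests and were killed directly afterwards, so the libraries carry whatever the tests changed in either group. The tissue was bulk hippocampus, in which fewer cells of a type and less RNA per cell cannot be told apart. No gene was targeted that could check the labels. Which columns are MA and which Control is in doubt from the sources used here and could not be settled from the table. Every direction is given as the columns are named and would turn if the names were exchanged.

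Glutathione is a small peptide with a reactive thiol that cells keep in its reduced form. Glutathione peroxidases use it to turn hydrogen peroxide and lipid peroxides into water and alcohols, transferases attach it to reactive compounds so that they can be exported, and glutaredoxins use it to reduce disulfides. Peroxiredoxins remove peroxides through a cysteine that thioredoxin reduces again, and thioredoxin is kept reduced by thioredoxin reductases with NADPH. In the brain, which uses much oxygen and is rich in unsaturated lipids, astrocytes hold a large part of the glutathione and pass its building blocks to neurons.

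The members differ in the catalytic residue that their chemistry depends on, and the codon for it is shown here because it separates the peroxidases that need selenium from those that do not. In the mouse reference transcripts (GENCODE M21, GRCm38), 4 of the 7 glutathione peroxidases, Gpx1, Gpx2, Gpx3 and Gpx4, carry an in-frame TGA at this position, which is read as selenocysteine. Gpx6, Gpx7 and Gpx8 carry a cysteine codon there. The capitals mark this codon, with 4 codons on each side.
Gpx1: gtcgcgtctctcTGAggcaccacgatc
Gpx3: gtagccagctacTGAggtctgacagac
Gpx4: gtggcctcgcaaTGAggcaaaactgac
Gpx7: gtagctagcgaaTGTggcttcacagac
Gpx8: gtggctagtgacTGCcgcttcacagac
All 5 stretches lie in coding exons, at chr9:108339439-108339465 (plus strand, exon 1 of 2) for Gpx1, chr11:54907244-54907270 (plus strand, exon 2 of 5) for Gpx3, chr10:80054725-80054751 (plus strand, exon 3 of 7) for Gpx4, chr4:108403418-108403444 (minus strand, exon 2 of 3) for Gpx7 and chr13:113045649-113045675 (minus strand, exon 2 of 3) for Gpx8. Both thioredoxin reductases among the members end in a cysteine codon followed by the same in-frame TGA, set in capitals.
Txnrd2: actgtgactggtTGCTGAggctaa
Txnrd3: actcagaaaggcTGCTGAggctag
These stretches lie at chr16:18477757-18477780 and chr6:89674774-89674797, both on the plus strand, and end with the stop codon.

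The glutaredoxins fall into those with paired cysteines and those with a single one, and the capitals in the following lines mark the codons of the active site, from its first cysteine codon to the codon that holds the partner cysteine or, where there is none, a serine.
Glrx: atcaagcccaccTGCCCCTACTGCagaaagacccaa
Glrx2: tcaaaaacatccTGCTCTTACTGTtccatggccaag
Glrx3, first site: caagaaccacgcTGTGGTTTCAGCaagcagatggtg
Glrx3, second site: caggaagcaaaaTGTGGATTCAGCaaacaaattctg
Glrx5: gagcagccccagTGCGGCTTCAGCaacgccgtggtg
Glrx at chr13:75840023-75840058 and Glrx2 at chr1:143745080-143745115 close the site with a second cysteine codon. Glrx5 at chr12:105032874-105032909 and both sites of Glrx3, whose printed stretches span the junctions of exons 4 and 5 and of exons 7 and 8 on chromosome 7, close it with a serine codon. Glrx3 and Glrx5 are known for handling iron-sulfur clusters.

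The levels of the 49 genes covered a wide range. Values are on the deposited scale, read as log2(RPKM + 1), where RPKM is the read count divided by gene length and by sequencing depth. For that reason levels can be compared between genes, though only roughly, since a normalization that is not described had been applied. Genes alike in sequence or with overlapping exons, such as Gstp1, Gstm5, Gstm1 and Prdx5, are less certain. Gpx4, which reduces lipid peroxides in membranes, stood highest, at 8.94 ± 0.09 (SD, n = 3) in the Control and 8.97 ± 0.26 (SD, n = 3) in the MA libraries, and was the 150th most abundant of the 16060 rows. Prdx5, Gstp1, Gstm5, Prdx2, Gstm1 and Prdx6 followed. In all, 16 of the 49 genes were among the top 10% of the table and 13 were below its median. In only 6 of the 48 pairs of neighbours in the order of level did all libraries of the higher gene exceed all libraries of the lower one, among them Gpx4 over Prdx5, Gstp1 over Gstm5 and Gstm1 over Prdx6. Prdx5 and Gstp1, for example, overlapped in range, though Prdx5 was higher in 6 of 6 libraries, by 0.073 on the log2 scale. At the other end, Gpx2, Gpx6, Gsta2, Gsto2 and Mgst2 did not pass the filter. Gpx2, known from the gut, lay between 0 and 0.37 and Gpx6, known from the olfactory epithelium, between 0 and 0.14. Gsta2 lay between 0 and 1.07, Gsto2 between 0.38 and 1.05 and Mgst2 between 0 and 0.57, each with overlapping groups.

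**Figure D1:**
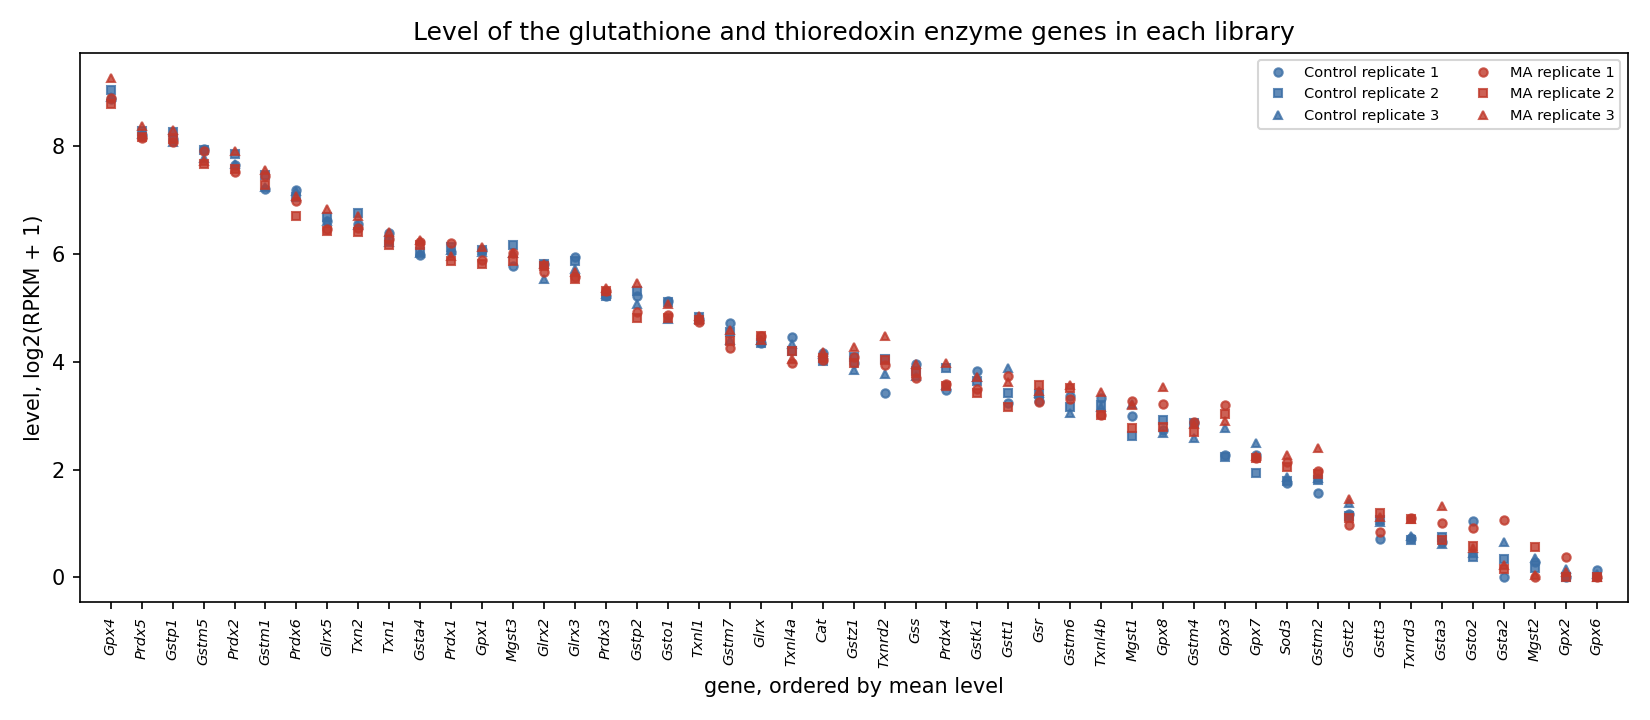
Level of each of the 49 genes as log2(RPKM + 1) on the vertical axis, ordered by mean level from left to right, with 1 point per library (blue Control, red MA, symbol by replicate number). The order runs from Gpx4 at about 9 to Gpx6 near 0, and for most genes the blue and red points overlap.

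Some facts of the whole table touch all that follows. The library labelled MA replicate 3 stood apart: its mean Pearson correlation with the other MA libraries was 0.978 across genes, against 0.984 and 0.985 for MA replicates 1 and 2 and 0.991 to 0.993 in the Control group. Choroid plexus markers, a list of 15, were higher in the MA libraries: 14 of the 15 did not overlap between the groups, 6 passed the adjusted threshold in limma, and the summed RPKM of the list ranged from 108 to 485 in the Control and from 1948 to 5351 in the MA libraries. The 5 blood markers summed to between 1599 and 2024 in the Control and between 3319 and 4378 in the MA libraries, and the 8 meningeal markers to between 42.2 and 51.8 against 85.8 to 110. For the other lists the sums overlapped between the groups, though members of some lists lay mostly to 1 side: 7 of 7 thalamus markers (sums of 72.9, 82.0 and 30.6 in MA replicates 1, 2 and 3 against 29.9 to 42.3 in the Control libraries) and 8 of 8 endothelial markers had higher means in MA, and 9 of 10 oligodendrocyte markers lower ones. That of the 8 hippocampal neuron markers, all of them with lower means in MA, ranged from 238 to 318 in the Control and from 218 to 254 in the MA libraries, and no marker of any list was at 0 in all 6 libraries. The part of these differences in the results was not tested. The depth of the libraries is unknown, since the table holds no counts.

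The first comparison asked which of these enzymes differed in the hippocampus after MA. After Benjamini-Hochberg adjustment over the 13321 tested genes, limma gave 0 members with p under 0.05, a threshold that 0.263% of all tested genes passed. At an unadjusted p-value under 0.05, there were 6 of the 44 tested members and 10.4% of all tested genes. Of the 6, 4 were higher in the MA libraries (Gpx3, Txnrd3, Sod3 and Gsta4; background 4.99%) and 2 were lower (Glrx3 and Txnl4a; background 5.46%). The MA and Control libraries did not overlap in 8 members, the same 6 with Gstm2 and Prdx3, both with higher values in MA. Among all tested genes 17.5% did not overlap, 7.32% with higher and 10.2% with lower values in MA. The shares of members over both directions, 13.6% and 18.2%, thus lay close to the background in both counts. By direction, 9.09% of members were higher and 4.55% lower at the unadjusted threshold. Without overlap, 13.6% were higher (background 7.32%) and 4.55% lower (background 10.2%). These shares by direction rest on 4, 2, 6 and 2 members. The median log2 fold change of the members, the mean of the MA minus the mean of the Control libraries, was -0.0051, with 21 higher and 23 lower, and that of all tested genes was -0.010. Of the 44, 32 (72.7%) were under 0.2 in size, against 74.8% of all tested genes. Gpx3 exceeded 0.5 on this scale, 1 member of the 44, against 3.3% of all tested genes. With a pseudocount of 0.1 or 0.01 in place of the offset of 1, the low genes Txnrd3 and Gsta3 did so too. That made 3 of the 44 members, against 7.42% and 8.18% of all tested genes. For 34 of the 44 (77.3%) the 95% interval of the log2 fold change lay within 0.5 on either side of 0, against 67.3% of all tested genes. That bound is 1.41-fold on the scale of RPKM + 1, and for low genes it allows a larger change in RPKM. The interval reached beyond that for Gpx3, Gpx8, Gsta3, Gstm2, Gstm6, Gstp2, Mgst1, Sod3, Txnrd2 and Txnrd3. Without MA replicate 3, 0 members passed the adjusted threshold (background 1.93%), 11 members had an unadjusted p under 0.05, 4 higher (background 11.9%) and 7 lower (background 11.4%), and 21 did not overlap, 7 higher (background 20.8%) and 14 lower (background 22.1%). Fewer libraries overlap less by construction: the count that did not overlap was also 16 without Control replicate 2 (background 25.4%) and 13 without MA replicate 1 (background 25.6%).

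**Figure D2:**
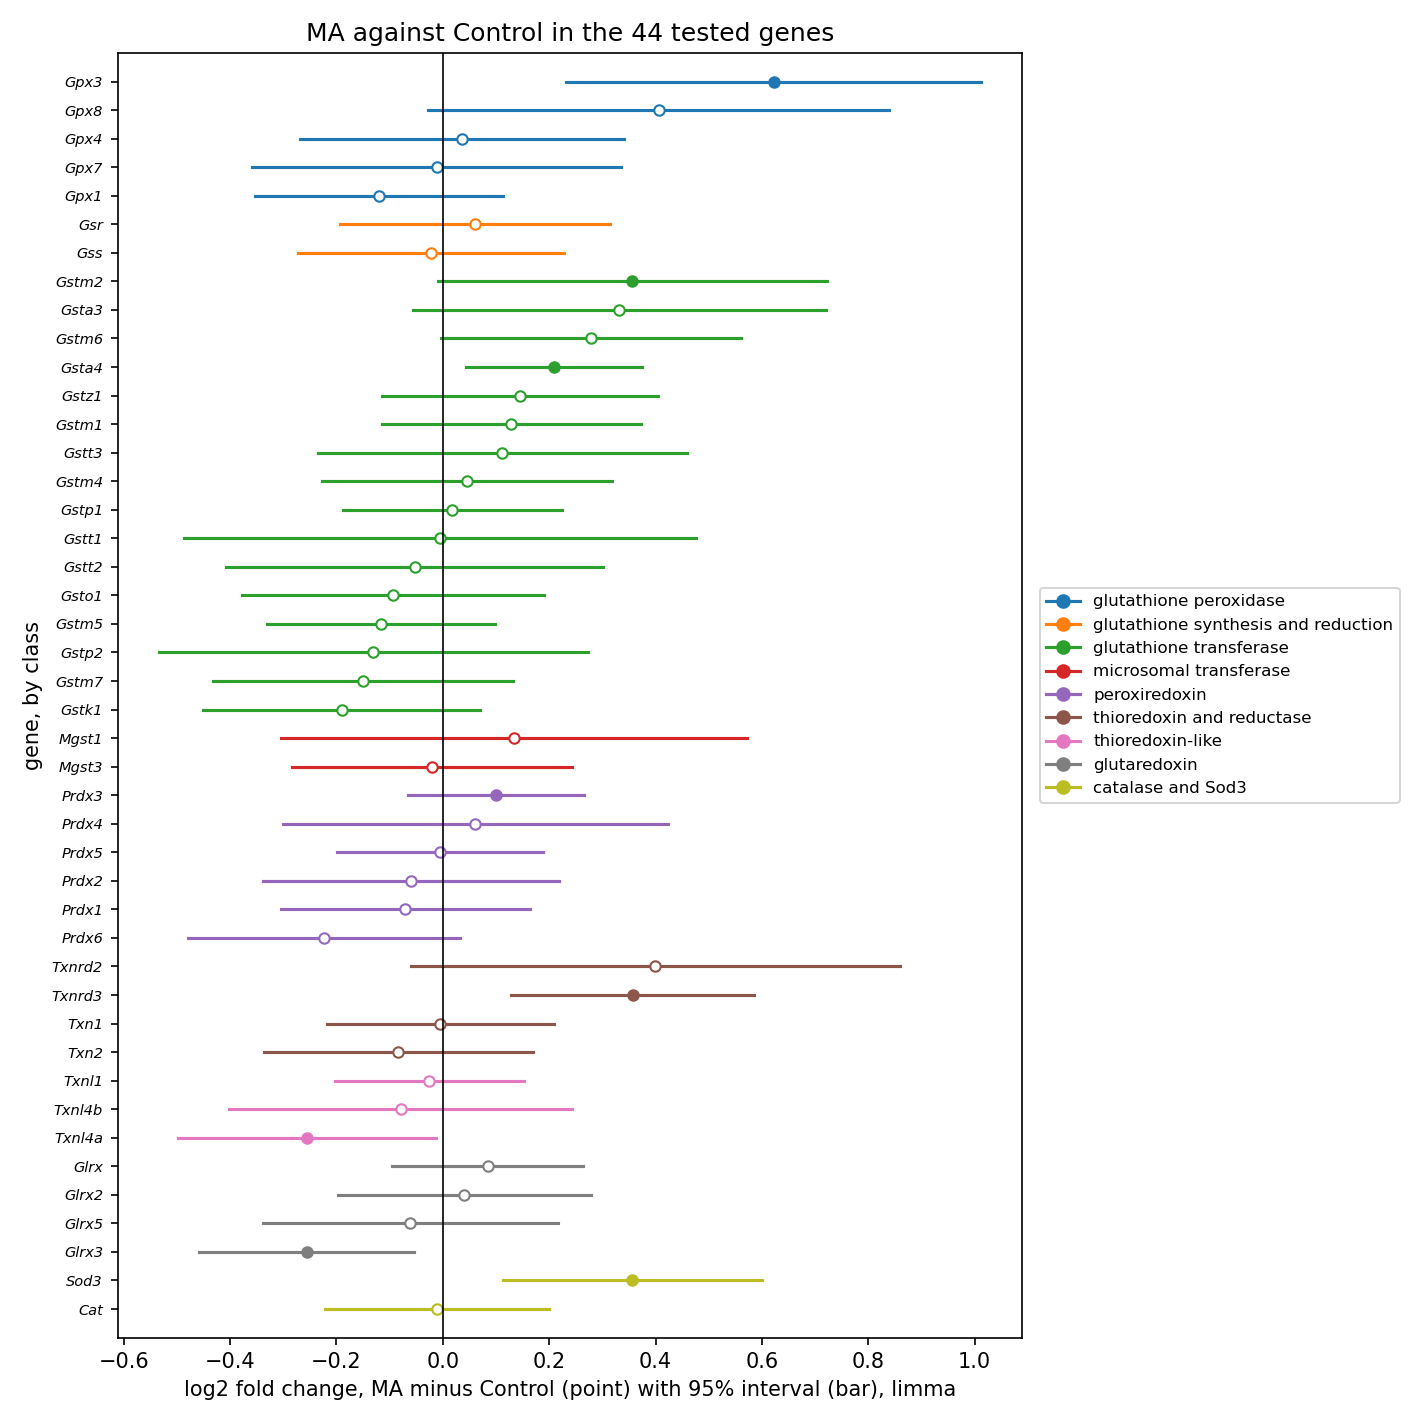
Log2 fold change of each of the 44 tested genes, MA minus Control, with its 95% interval from limma (bar), grouped and colored by class. Filled points are the 8 genes whose MA and Control libraries did not overlap, and the intervals of Gpx3, Txnrd3, Sod3, Gsta4, Glrx3 and Txnl4a leave out 0.

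Among the glutathione peroxidases, the secreted Gpx3 had non-overlapping groups, and the abundant Gpx1 and Gpx4 had values that overlapped between the groups. Gpx3, found in plasma and other extracellular fluids, was 2.26, 2.23 and 2.76 in Control replicates 1, 2 and 3 and 3.20, 3.02 and 2.89 in MA replicates 1, 2 and 3. All 3 MA libraries were above all 3 Control libraries, with Control replicate 3 nearest to them. The log2 fold change was 0.62 ± 0.17 (standard error) with a limma adjusted p of 0.266, and the back-transformed means were 4.34 RPKM in the Control and 7.23 RPKM in the MA libraries. Leaving out any 1 library gave between 0.53 and 0.80. With limma's sample quality weights, which gave MA replicate 3 a weight of 0.194, the adjusted p of Gpx3 was 0.0477 (background 4.4%), and it ranged from 0.0477 to 0.7395 over the 15 alternatives. The choroid plexus markers were also higher in MA. Control replicate 3 had both the highest summed choroid plexus level and the highest Gpx3 value of its group, whereas MA replicate 3, with the highest summed level of all, had the lowest Gpx3 value of the MA group.

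Gpx8, an enzyme of the endoplasmic reticulum, had values of 2.73, 2.91 and 2.68 in the Control and 3.22, 2.79 and 3.53 in the MA libraries. The groups overlapped, since MA replicate 2 was below Control replicate 2, and the difference of 0.41 (standard error 0.19, limma adjusted p = 0.507) became 0.23 without MA replicate 3. Gpx7, also of the endoplasmic reticulum, differed by -0.012, with a 95% interval from -0.36 to 0.34. Gpx1, the main peroxidase of the cytosol, was 6.07, 6.07 and 6.03 in the Control and 5.88, 5.80 and 6.13 in the MA libraries. MA replicates 1 and 2 were below all Control libraries and MA replicate 3 was above them, and the log2 fold change of -0.12 (limma adjusted p = 0.735) became -0.22 without MA replicate 3. Gpx4 was similar, with 8.86, 9.03 and 8.91 in the Control and 8.89, 8.77 and 9.26 in the MA libraries. MA replicate 2 was below and MA replicate 3 above all Control libraries, with MA replicate 1 between them. The log2 fold change was 0.036, with a 95% interval from -0.27 to 0.34, and it turned to -0.11 without MA replicate 3.

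Gss and Gsr differed by less than their standard error. Gss, which joins glycine to complete glutathione, was 13.2 in the Control and 13.0 in the MA libraries on the RPKM scale, back-transformed from the mean log2 values, and differed by -0.022 on the log2 scale (95% interval from -0.27 to 0.23). The Gss locus shares exonic bases with Acss2, Gssos1 and Gssos2 on the other strand. Gsr, which reduces oxidized glutathione with NADPH, differed by 0.060 (95% interval from -0.19 to 0.31).

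Of the 18 glutathione transferases, 16 were tested, and 9 had higher and 7 lower means in MA. Gsta4, which detoxifies the lipid aldehyde hydroxynonenal, was 5.97, 6.03 and 6.01 in the Control and 6.21, 6.16 and 6.26 in the MA libraries. The gap between the groups was larger than the spread within either. Gsta4 differed by 0.21 ± 0.071 on the log2 scale (standard error; limma adjusted p = 0.370), 1.16-fold on the scale of RPKM + 1, and it stayed between 0.19 and 0.24 when any 1 library was left out. The gene is at chr9:78182774-78209349 (GRCm38, plus strand). Gsta3, of the same alpha class, was low and variable, between 0.62 and 0.74 in the Control and between 0.70 and 1.32 in the MA libraries.

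Gstm2, of the mu class, was 1.57, 1.80 and 1.83 in the Control and 1.97, 1.91 and 2.40 in the MA libraries, without overlap. The highest value by far was that of MA replicate 3, and the difference of 0.36 ± 0.16 (standard error; limma adjusted p = 0.487) became 0.20 without it. The 6 mu class genes lie side by side on chromosome 3 and their coding sequences are alike. Gstm1 was 86.0% identical to Gstm2 and 73.2% to Gstm5 over the aligned bases, so reads could be split between them and their values are uncertain. The more abundant Gstm1 and Gstm5 differed by 0.13 and -0.12, with overlapping groups. Gstp1 and Gstp2 are more alike still, 98.1% identical over 633 aligned bases, and are likewise uncertain. Gstp1, the most abundant transferase, was 8.12, 8.25 and 8.07 in the Control and 8.08, 8.13 and 8.29 in the MA libraries, a difference of 0.018 (95% interval from -0.19 to 0.22). Gstp2 was 5.21, 5.31 and 5.07 against 4.92, 4.81 and 5.47, where MA replicate 3 was again above and the other MA libraries below all Control libraries. The remaining transferases had log2 fold changes from -0.19 for Gstk1, an enzyme of mitochondria and peroxisomes, to 0.28 for Gstm6. Of the microsomal transferases, Mgst3 differed by -0.020 and Mgst1 by 0.13, both with overlapping groups.

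The peroxiredoxins were the second most abundant class after the transferases, with a summed RPKM of 764 ± 21.7 (SD, n = 3) in the Control and 737 ± 70.4 (SD, n = 3) in the MA libraries. Prdx3, the peroxiredoxin of mitochondria, was 5.21, 5.22 and 5.25 in the Control and 5.30, 5.32 and 5.36 in the MA libraries. The groups did not overlap and each was narrow, but the difference was only 0.10 (standard error 0.071, limma adjusted p = 0.689). Prdx6, which uses glutathione instead of thioredoxin, was 7.19, 7.06 and 7.16 in the Control and 6.97, 6.69 and 7.07 in the MA libraries. MA replicate 3 lay just above Control replicate 2, and the gene differed by -0.22 ± 0.11 (standard error; limma adjusted p = 0.546), or -0.30 without MA replicate 3. Prdx5, the most abundant of the class, overlaps Trmt112 on the other strand by 409 exonic bases and differed by -0.0056, with a 95% interval from -0.20 to 0.19. Prdx1 and Prdx4 differed by -0.071 and 0.061.

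Prdx2, an abundant cytosolic peroxiredoxin, needs a further remark because 173 of its 3050 exonic bases overlap Junb and 177 overlap Rnaseh2a on the other strand, and the sources used here do not state that reads were counted by strand. Prdx2 was 7.65, 7.85 and 7.66 in the Control and 7.52, 7.56 and 7.90 in the MA libraries. The groups overlapped, and the log2 fold change was -0.061 (95% interval from -0.34 to 0.22). Junb, an immediate early transcription factor gene, was 6.59, 6.13 and 5.97 against 4.86, 4.85 and 5.18, with a log2 fold change of -1.26 (limma adjusted p = 0.0456), under the same doubt about the column names. Rnaseh2a differed by -0.15 (limma adjusted p = 0.715). MA replicates 1 and 2 were below every Control library for both Prdx2 and Junb. MA replicate 3, in which Prdx2 was highest of all 6, was below every Control library for Junb. Without MA replicate 3 the log2 fold change of Prdx2 was -0.18. The part of the overlapping genes in the Prdx2 values was not tested.

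In the thioredoxin system, the reductase Txnrd3 had higher values in every MA library than in any Control library, and both thioredoxins had log2 fold changes under 0.1 in size. Txnrd3, a reductase with an added glutaredoxin domain that is best known from testis, was low, at 0.73, 0.70 and 0.76 in the Control and 1.10, 1.08 and 1.08 in the MA libraries. The distance between the groups was several times the spread within them. Txnrd3 differed by 0.36 ± 0.098 on the log2 scale (standard error; limma adjusted p = 0.277), and leaving out any 1 library gave between 0.34 and 0.37. Because the gene is low, the offset of 1 understates its change, and with a pseudocount of 0.01 the log2 fold change was 0.76. Txnrd2, the mitochondrial reductase, was 3.42, 4.05 and 3.77 in the Control and 3.93, 4.03 and 4.48 in the MA libraries. These overlapped, and the difference of 0.40 (standard error 0.20, limma adjusted p = 0.546) became 0.23 without MA replicate 3. Txn1, the cytosolic thioredoxin, differed by -0.0046 (95% interval from -0.22 to 0.21), and Txn2, the mitochondrial one, by -0.083 (95% interval from -0.34 to 0.17).

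All 3 thioredoxin-like genes had lower means in MA, though MA replicate 3 held the highest of the 6 values for Txnl1 and Txnl4b. Txnl4a, whose product is a component of the spliceosome with a thioredoxin fold and no known part in peroxide removal, was 4.46, 4.21 and 4.32 in the Control and 3.98, 4.20 and 4.05 in the MA libraries. The groups just failed to overlap, at Control replicate 2 and MA replicate 2, and the means differed by -0.26 ± 0.10 (standard error; limma adjusted p = 0.458). It shares 457 exonic bases with the gene model Gm16286 on the same strand and is uncertain for that reason. Its paralog Txnl4b differed by -0.079 and Txnl1 by -0.026, both with overlapping groups.

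Glrx3 was the glutaredoxin whose groups did not overlap. It was 5.93, 5.87 and 5.72 in the Control and 5.56, 5.54 and 5.65 in the MA libraries, so that all MA libraries were below all Control libraries, with MA replicate 3 closest. Glrx3 differed by -0.26 ± 0.087 on the log2 scale (standard error; limma adjusted p = 0.371), or 0.837 times the Control value on the scale of RPKM + 1, and it was between -0.32 and -0.21 when any 1 library was left out. Glrx5, the mitochondrial enzyme with the same single-cysteine site, was 6.60, 6.68 and 6.61 against 6.46, 6.42 and 6.83. MA replicates 1 and 2 were again below and MA replicate 3 above the Control libraries, and the log2 fold change of -0.061 became -0.19 without MA replicate 3. Glrx and Glrx2, with paired cysteines, differed by 0.084 and 0.041.

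Sod3, the superoxide dismutase of the extracellular space, was 1.74, 1.78 and 1.85 in the Control and 2.13, 2.05 and 2.26 in the MA libraries. The groups did not overlap, and the difference between them was larger than the spread within either. Sod3 differed by 0.36 ± 0.10 on the log2 scale (standard error; limma adjusted p = 0.311), 1.28-fold on the scale of RPKM + 1, and 0.30 without MA replicate 3. Catalase (Cat), which breaks down hydrogen peroxide in peroxisomes, differed by -0.011, with a 95% interval from -0.22 to 0.20. The meningeal and choroid plexus markers were higher in the same libraries, and their part in the values of Gpx3 and Sod3 was not tested.

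**Figure D3:**
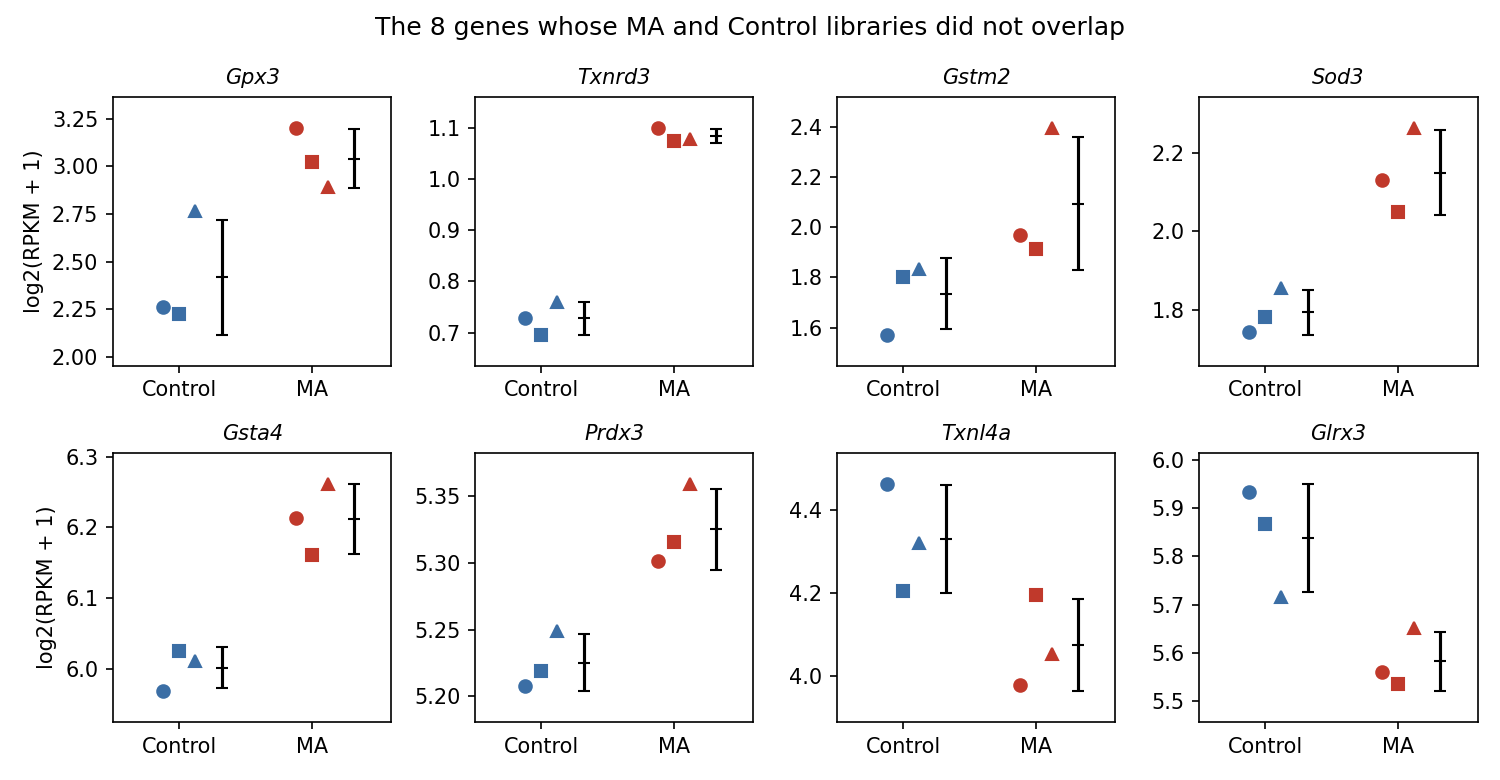
Values as log2(RPKM + 1) in the 3 Control (blue) and 3 MA (red) libraries, with the mean and SD beside each group, for the 8 genes whose groups did not overlap. The vertical axes differ between panels and do not start at 0. Gpx3, Txnrd3, Gstm2, Sod3, Gsta4 and Prdx3 are higher and Txnl4a and Glrx3 lower in MA.

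A high value in MA replicate 3, as seen for Gpx1, Gpx4, Gstp2 and Glrx5, was common in the family. MA replicate 3 held the highest of the 6 values in 25 of the 44 tested members, or 56.8%, and the lowest in 0, while over all tested genes it was highest in 25.6% and lowest in 29.8%. Its value was above the mean of the other MA libraries in 38 of the 44 members, against 49.4% of all tested genes, with a median difference of 0.18 on the log2 scale. MA replicate 2 was highest in 2 members (4.55%, all tested genes 14.7%) and lowest in 13 (29.5%, all tested genes 15.7%). The difference between MA replicate 3 and the other MA libraries moved with gene length in the whole table. The tested genes were put into 4 classes of about equal size by exonic length. In the shortest class, 205 to 2816 bases, the median difference was 0.18, and in the longest it was -0.17. The members were shorter in the median, with an exonic length of 2064.5 bases against 4501 for all tested genes. Of the 44 members, 26 are in the shortest class, where their median difference of 0.18 was close to that of all genes of that length. In the next class, from 2816 to 4501 bases, the 10 members had a median difference of 0.31 and all genes 0.022. From 4501 to 6956 bases, the 7 members had 0.10 and all genes -0.060. In the longest class the 1 member had 0.092 and all genes -0.17. The part of gene length in the members' values was not tested further.

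**Figure D4:**
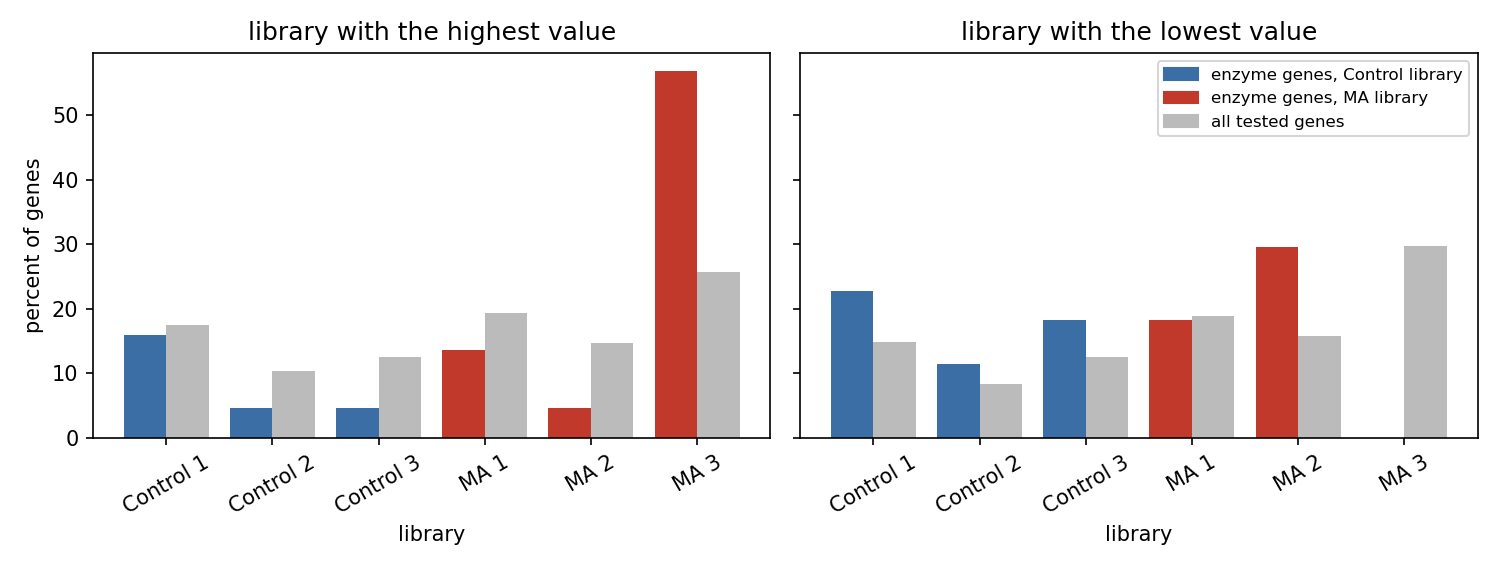
Percent of genes for which each library had the highest (left) or the lowest (right) of the 6 values, for the 44 enzyme genes (blue Control, red MA) and for all 13321 tested genes (grey). MA replicate 3 was highest for 56.8% and lowest for 0 of the enzyme genes.

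**Figure D5:**
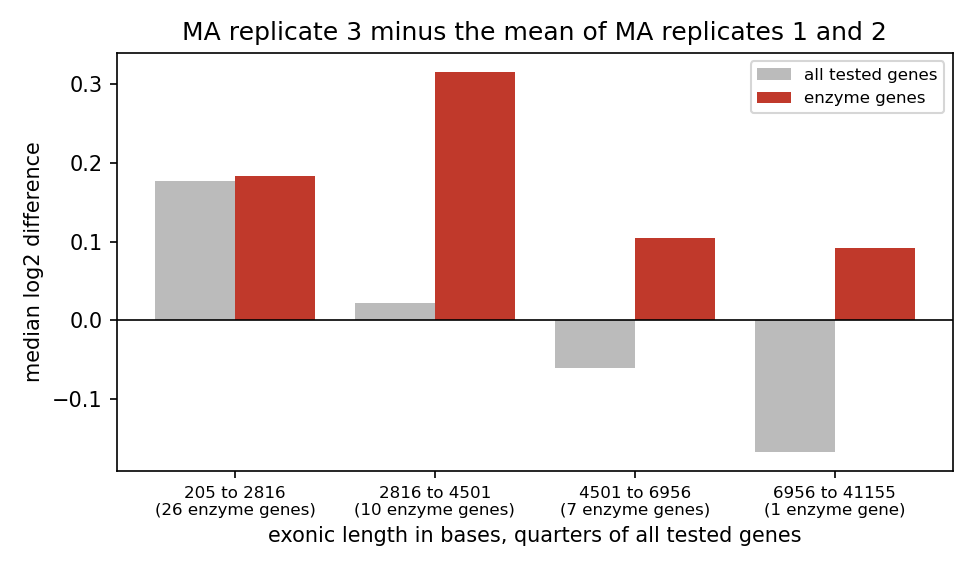
Median log2 difference between MA replicate 3 and the mean of MA replicates 1 and 2 in 4 classes of exonic length, for all tested genes (grey) and the enzyme genes (red). For all genes the difference runs from 0.18 in the shortest to -0.17 in the longest class, and the longest class holds 1 enzyme gene.

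A further 57 genes were tested in the same fit, for the supply of glutathione, NADPH and selenocysteine, for the partners of thioredoxin, for the glyoxalase and conjugate export route and for the other superoxide dismutases and Nrf2. None passed an adjusted p-value under 0.05 in limma (background 0.263%), and 5 had an unadjusted p under 0.05, 4 higher (background 4.99%) and 1 lower (background 5.46%) in MA. Their median log2 fold change was 0.022, with 32 higher and 25 lower, against -0.010 over all tested genes. Groups did not overlap for 9 of the 57 with higher values (background 7.32%) and 2 with lower values (background 10.2%) in MA. The count of 5 became 15 without MA replicate 3 (background 23.3%), 2 without Control replicate 1 (background 6.22%) and 3 without MA replicate 2 (background 7.74%).

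Of the NADPH suppliers, 8 of 10 had higher means in MA, as did 6296 of all 13321 tested genes. The groups did not overlap for 3 of them (background 7.32%), and 2 had an unadjusted p under 0.05 in limma (background 4.99%). Pgd, of the pentose phosphate pathway, was 3.92, 3.89 and 3.95 in the Control and 4.17, 4.16 and 4.24 in the MA libraries, which differ by 0.27 on the log2 scale (limma adjusted p = 0.306). Idh2, the mitochondrial isocitrate dehydrogenase that yields NADPH, was 4.86, 4.98 and 4.91 against 5.09, 5.25 and 5.43, a log2 fold change of 0.33 (limma adjusted p = 0.345). Neither gene's groups overlapped. For Idh2 the highest value was that of MA replicate 3, and without it the log2 fold change was 0.25.

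In glutathione synthesis and turnover, 7 of 15 genes had higher and 8 lower means in MA. Ggt7, a member of the gamma-glutamyltransferase family, was 5.31, 5.38 and 5.38 in the Control and 5.52, 5.62 and 5.63 in the MA libraries, with a log2 fold change of 0.23 (limma adjusted p = 0.350). Slc1a1, the neuronal carrier that takes up cysteine for glutathione synthesis, was 4.99, 4.91 and 4.81 against 4.63, 4.798 and 4.63, with a log2 fold change of -0.22 (limma adjusted p = 0.466). The groups did not overlap for either. Of the 8 tested genes of selenocysteine supply, 5 had higher means in MA. Eefsec, the elongation factor that brings selenocysteine to the ribosome, was 2.78, 2.89 and 2.86 in the Control and 2.99, 3.23 and 3.07 in the MA libraries. Its log2 fold change was 0.25 (limma adjusted p = 0.452). None of the 11 thioredoxin partners, 6 genes of the glyoxalase and conjugate export list or 7 genes of the Nrf2 and superoxide dismutase list had an unadjusted p under 0.05 in limma. Among them was Txnrd1, the cytosolic thioredoxin reductase, which the symbol pattern did not take as a member. It was 4.02, 3.94 and 4.15 in the Control and 3.94, 3.87 and 3.70 in the MA libraries, lower in MA without overlap but by a narrow margin, and differed by -0.20 (limma adjusted p = 0.560). In the same lists, Srxn1, Nxn and Keap1 were higher in MA without overlap, by 0.28, 0.20 and 0.12 (limma adjusted p = 0.478, 0.572 and 0.647).

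The promoters were searched for the core of the antioxidant response element, the site through which the factor Nrf2 acts on several of these genes, spelled TGACNNNGC on the promoter strand or GCNNNGTCA for the other strand. The window ran from 250 bases before to 50 bases after the annotated start (RefSeq, GRCm38.p6). Of the 49 members, 42 were matched by symbol, and 5 of the 42 (11.9%) held the core: Gsta3, Gstm5, Gstm7, Mgst1 and Prdx1. Among the genes of the table with a promoter sequence, 16.7% held it. The stretch in Prdx1 is shown as an example, with the core in capitals as read on the promoter strand.
Prdx1: agggaaagcGCTGAGTCAtcccccgta
It lies at chr4:116685457-116685483, upstream of the gene on the plus strand. None of the 6 members with an unadjusted p under 0.05 (limma) was among these 5. A promoter was matched for 37 of the 44 tested members, and at a share of 16.7% so few genes cannot show a difference. The letters in such a window are a description and say nothing of binding.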

How the data were processed

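Per the paper's methods, Hisat2 was the aligner and featureCounts the counter, with values given as FPKM, while the submitters' processing notes name Bowtie 0.12.2 and the builds mm8 and mm9. The library kit also differs between paper and labels. The values the authors deposited, named RPKM, lie on a log scale, read as log2 with an offset of 1. Read as log2, the length-weighted sums were 1.778 to 1.885 times what RPKM should give, and read as natural logs 18.2 to 19.6 times. The libraries shared their highest value, so a normalization between them, not described, had been applied. Depth is unknown.

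All 13321 genes past the filter were fitted with limma 3.58.1 in R 4.3.3 (lmFit, eBayes with trend, no covariate, Benjamini-Hochberg adjustment, two-sided). In 5 simulated tables of MA against Control with 13321 genes of which 200 had a log2 change of 1, the median share recovered was 75.5%, and 3.82% of calls were false. Values were drawn independently with a normal spread for each gene and no library that stood apart. These shares do not describe smaller changes or tables with a library like MA replicate 3. Members and lists were chosen with earlier results of these data known. By rule, library values were given for members with an unadjusted p under 0.05 (limma) and for those whose groups did not overlap. The rule also named the highest member of each class. Of these, Gpx4, Gstp1 and Glrx5 are given with library values and the others with a log2 fold change. Further members were described after their values were seen. Of 58 listed partner names, 57 were in the table, and Sepp1 and Selenop name the same gene. Coordinates are those of GENCODE M21 (GRCm38), for location only. Replicates are separate mice. Alternatives covered filter, pseudocount, scaling, trend, weights, replicate block and leaving out each library.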

Additional observations from a re-analysis of the deposited data

How the results depend on the processing

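No member passed the adjusted threshold in 14 of the 15 alternatives. With sample quality weights 1 did, Gpx3, and the counts at an unadjusted p under 0.05 were 12 members and 17 partner genes, in place of 6 and 5 (all tested genes 26.3% in place of 10.4%). Of those 12 members, 5 were higher and 7 lower, against backgrounds of 12.9% and 13.4%. With a minimum mean of 5, groups did not overlap in 5 members instead of 8 (all genes 16.9%). With the replicate number as a block (replicate block) the counts at an unadjusted p under 0.05 were 3 members and 3 partner genes (all genes 6.32%). Same-numbered libraries deviated from their group means with correlations of -0.197, -0.242 and -0.337, and 0 of the 6 libraries correlated best with its own number, so the numbers were not taken as pairs. When 1 library at a time was dropped, the count at an unadjusted p under 0.05 ranged from 4 to 11 members and from 2 to 15 partner genes, and the count of members that did not overlap from 9 to 21, while over all tested genes these shares ran from 6.22% to 23.3% and from 23.6% to 42.9%. The median log2 fold change of the members ranged from -0.052 to 0.034 in these fits and kept within the spread between libraries in all alternatives.

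The 6 members with an unadjusted p under 0.05 and Gstm2 and Prdx3 kept their direction in every alternative that tested them. The groups of these 8 did not overlap, so leaving out a library or changing filter, pseudocount, trend or weights could not turn the sign. Keeping it there is no further support. The log2 fold change of 8 of the highest members of their classes, all near 0, changed sign. With quality weights it was -0.13 for Gpx4 and -0.039 for Gstp1, and with quantile normalization 1.2e-05 for Prdx5. Across the fits that drop 1 library, it ran from -0.058 to 0.022 for Cat, from -0.19 to 0.017 for Glrx5, from -0.11 to 0.14 for Gpx4, from -0.095 to 0.038 for Gss, from -0.043 to 0.070 for Gstp1, from -0.12 to 0.070 for Mgst3, from -0.076 to 0.031 for Prdx5 and from -0.058 to 0.0015 for Txnl1. The cause was not tested. With 3 mice per group and no counts, small changes could not be detected: the standard errors of the tested members ran from 0.071 to 0.21 on the log2 scale.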
